A study of Mus musculus with 6 samples.

Results

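The genes described here are those of pyruvate dehydrogenase, the tricarboxylic acid (TCA) cycle and the reactions that feed or drain the cycle. This list of 32 genes was chosen by function, with earlier results of these data known. Each gene was read from the probe set that carries its symbol and no other, and 31 of the 32 had such a probe set, among 30176 genes that did. Glud1, glutamate dehydrogenase, shares its probe set with another gene and is not analysed here. The arrays compared the peri-infarct region of male C57BL/6 hearts 4 weeks after ligation of the left descending coronary artery (MI, 3 arrays) with the corresponding region of hearts that had the same operation without ligation (sham, 3 arrays). The sources give no age for the mice. Total RNA of the left ventricle was hybridized to Affymetrix mouse transcriptome arrays 1.0, with 1 array for each sample. Whether the 3 samples of a group were 3 different hearts is not stated, and the p-values therefore reflect only the spread between these samples, which may be partly technical. Values are log2 signals, a log2 fold change is the MI mean minus the sham mean on that scale, and a gene was called at an adjusted p under 0.05 from limma.

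Pyruvate dehydrogenase is the mitochondrial enzyme complex that turns pyruvate, the end product of glycolysis, into acetyl-CoA. Kinases switch the complex off by phosphorylation and phosphatases switch it back on. The TCA cycle oxidizes acetyl-CoA from pyruvate, fatty acids and ketone bodies and passes the electrons to the respiratory chain, and heart muscle, with its dense mitochondria, runs the cycle at a high rate. Anaplerotic reactions, such as the carboxylation of pyruvate, replace cycle intermediates that are lost to other pathways.

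In at least 1 array, 13 of the 31 genes exceeded a log2 signal of 16, which is as much as a scan of 16 bits can hold. How such values arose is not described, so fold changes are given on the deposited scale only. The highest signal of an array was 19.79 to 19.93, and the brightest gene of the list, Cs, reached 19.01. On each array the brightest of 23 background controls gave a signal between 5.12 and 6.08, and genes that did not exceed it are described as within the background range. The labelled tissue had all 17 cardiomyocyte markers above the threshold for testing in the table, but the sham arrays differed in markers of the atrium. Myl7, the atrial myosin light chain, read 4.95, 11.19 and 8.43 in sham 1, 2 and 3 and 4.51 to 4.78 in the MI arrays, and Sln, the atrial calcium pump regulator sarcolipin, read 4.46, 10.25 and 7.45 in sham 1, 2 and 3. The part of atrial tissue in the results was not tested, and values against each sham array are therefore given for the list.

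Mean signals of 30 of the 31 genes were lower in the MI hearts, and Pdk3, a kinase of pyruvate dehydrogenase, was the exception. Of the 31 genes tested, 11 were down-regulated and 1 was up-regulated at an adjusted p under 0.05 from limma, where 3.64% of all 32979 probe sets tested were called lower and 2.97% higher (6.61% in either direction). The log2 fold changes of the 11 ranged from -0.97 to -0.55, and that of Pdk3 was 0.72, so that none of the 12 reached the 2-fold change that the methods also ask for. The groups did not overlap in any of the 11, with gaps of 0.33 to 0.74 between them. Among the brighter probe sets, above the 75th percentile of the mean signal, 7.64% were called lower and 4.71% higher in a fit of their own, and 15 of the 29 genes of the list that lie there were called lower. The median log2 fold change of the 31 genes was -0.56, against 0.01 over all probe sets tested and -0.01 over the brighter ones. In 25 of the 31 genes the MI arrays all lay below the sham arrays, as they did in 16.8% of all probe sets and in 22.2% of the brighter ones. Of the 19 genes that were not called, 14 had such non-overlapping groups, and 7 of the 19 had an adjusted p between 0.05 and 0.1 from limma. The direction held in every fit that left out 1 array (30 genes lower and Pdk3 higher), whereas the calls did not: the number called in either direction was 12 with all arrays, 20 without MI 3, 2 without sham 1 (Dlst and Pdk2) and 0 from limma without sham 2, sham 3, MI 1 or MI 2, where 19 or 20 genes were lower at an unadjusted p under 0.05. Calls over all 32979 probe sets changed likewise, from 2180 with all arrays to 4687 without MI 3, 327 without sham 1, 61 without MI 2 and 0 from limma without sham 2, sham 3 or MI 1, where 6013 to 6340 had an unadjusted p under 0.05. The methods' t-test with Benjamini-Hochberg adjustment called 2, Dlst and Idh3a, and at an unadjusted p under 0.05 it gave 21 lower and 1 higher. Peri-infarct tissue is a mixture, and in these bulk samples fewer cardiomyocytes and less of an RNA per cardiomyocyte cannot be told apart.

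The median of the list lay below the sham level in each MI array. The median difference of the 31 genes from the sham mean was -0.64 in MI 1, -0.45 in MI 2 and -0.46 in MI 3, and the sham arrays lay at -0.03, 0.01 and 0.03. MI 3 was the highest MI array in 20 of the 30 lower genes and the lowest in 7. Set against sham 1 alone, whose atrial markers were low, the median difference of the MI mean was -0.49, and it was -0.55 against sham 2 and -0.61 against sham 3.

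**Figure D1:**
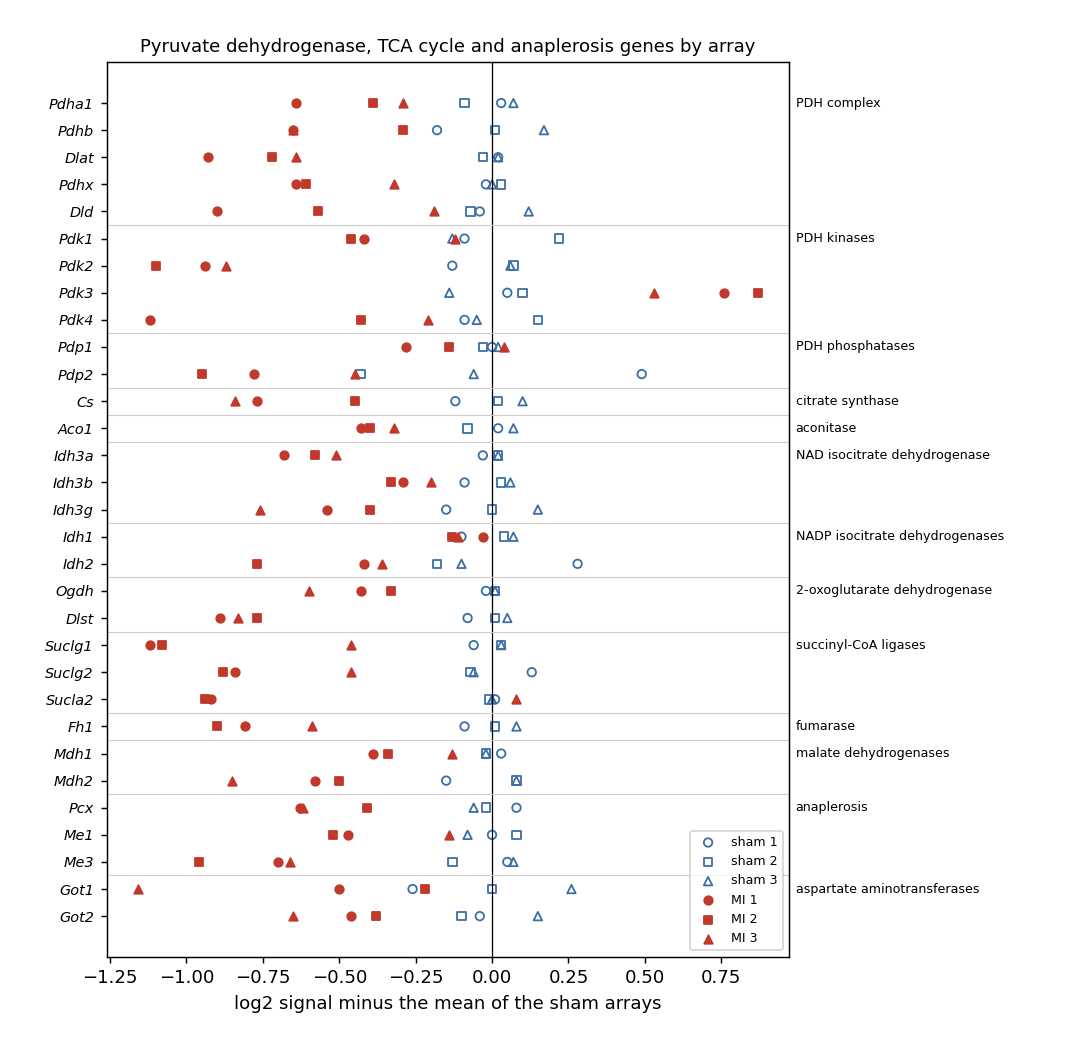
Log2 signal of each of the 31 genes in each array, minus the mean of its 3 sham arrays (x axis), with genes grouped by enzyme step (y axis), open blue symbols for sham, filled red symbols for MI, and circle, square and triangle for replicates 1, 2 and 3. All MI symbols lie left of the sham symbols for 25 genes, right of them for Pdk3, and overlap them for 5.

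The promoters of the mitochondrial kinase genes Pdk2 and Pdk3 and of Dlst are shown because Pdk2 had the largest decrease of the list, Pdk3 was its 1 increase and Dlst had its lowest adjusted p. Each runs from 250 bases before to 50 bases after the start site in RefSeq's assembly GRCm38.p6, 5′ to 3′ on the strand of the gene, with Pdk2 at chr11:95041322-95041621 on the minus strand, Pdk3 at chrX:93832101-93832400 on the minus strand and Dlst at chr12:85110583-85110882 on the plus strand. Of the 2 start sites listed for Pdk2 the upstream one is shown. Capitals mark GGGCGG (a GC box) and CCAAT, on either strand.
Pdk2: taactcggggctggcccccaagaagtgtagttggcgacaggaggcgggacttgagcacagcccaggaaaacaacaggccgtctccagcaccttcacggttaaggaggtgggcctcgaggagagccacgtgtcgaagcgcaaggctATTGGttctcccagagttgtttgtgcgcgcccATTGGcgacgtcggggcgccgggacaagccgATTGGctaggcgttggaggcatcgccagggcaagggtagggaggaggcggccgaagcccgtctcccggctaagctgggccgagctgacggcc
Pdk3: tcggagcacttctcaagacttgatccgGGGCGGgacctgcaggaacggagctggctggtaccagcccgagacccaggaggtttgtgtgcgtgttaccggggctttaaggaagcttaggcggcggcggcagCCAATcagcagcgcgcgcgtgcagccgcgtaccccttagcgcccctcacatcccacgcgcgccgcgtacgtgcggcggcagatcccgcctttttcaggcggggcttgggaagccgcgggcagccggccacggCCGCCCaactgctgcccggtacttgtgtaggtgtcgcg
Dlst: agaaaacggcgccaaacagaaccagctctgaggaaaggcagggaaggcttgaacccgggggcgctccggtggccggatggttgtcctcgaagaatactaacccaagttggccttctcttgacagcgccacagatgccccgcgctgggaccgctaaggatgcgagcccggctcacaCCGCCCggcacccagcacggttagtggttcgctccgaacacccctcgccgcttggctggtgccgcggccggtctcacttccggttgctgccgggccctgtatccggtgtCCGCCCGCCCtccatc
The Pdk2 promoter held 3 CCAAT and 0 GC boxes, that of Pdk3 held 1 CCAAT and 2 GC boxes, and that of Dlst held 0 CCAAT and 3 GC boxes, of which 2 overlap at its 3′ end.

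A promoter was listed for 30 of the 32 genes, and Pdp1 and Idh3a had none in the table. Motifs of 3 regulators of mitochondrial genes were searched on both strands: TCAAGGTCA, bound by the oestrogen-related receptors, the direct repeat bound by PPAR and RXR, and the palindrome bound by NRF1. None of the 30 genes held any of them, where 0.466%, 0.0481% and 1.07% of all 27025 genes with a listed promoter did. A wider form of the receptor motif, TNAAGGTCA, which includes every TCAAGGTCA, was added after these results and was found in 0 of the 30 genes and in 1.43% of all genes. Of the general promoter motifs, also added afterwards, GGGCGG was present in 20 of the 30 genes (66.7%) and in 38.2% of all genes, and CCAAT in 18 (60.0%) and in 41.1%. Some genes have several listed start sites, so that more sequence was searched for them. Of the genes of the list with several, only Ogdh has windows that overlap. The median GC content was 61.2% over the 40 listed promoters of these genes and 52.7% over all listed promoters, and the part of base content in the share with a GC box was not tested. The absence of a motif says only that these letters are not in the window.

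Within the pyruvate dehydrogenase complex, Dlat, the acetyltransferase core, was down-regulated. Its signal was 12.55, 12.50 and 12.55 in sham 1, 2 and 3 and 11.60, 11.81 and 11.89 in MI 1, 2 and 3. The groups were 0.60 apart, and the log2 fold change was -0.77 ± 0.11 (SE, limma, adjusted p = 0.0211). The other subunits had smaller differences and were not called. The decarboxylase subunits Pdha1 and Pdhb had log2 fold changes of -0.45 and -0.53, and Pdhx, the protein that anchors the dihydrolipoyl dehydrogenase to the core, had one of -0.52 (SE 0.11, adjusted p = 0.0516, limma). Dld, that dehydrogenase, which the complex shares with 2-oxoglutarate dehydrogenase, had one of -0.56, with MI signals from 15.65 in MI 1 to 16.36 in MI 3. The MI and sham arrays did not overlap in any of these subunits.

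Of the 4 kinases of the complex, 1 was down-regulated, 1 was up-regulated and 2 were not called. Pdk2, an isoform found in most tissues, was down-regulated and had the largest decrease of the whole list. It read 14.79, 14.99 and 14.98 in sham 1, 2 and 3 and 13.98, 13.82 and 14.05 in MI 1, 2 and 3, with a log2 fold change of -0.97 ± 0.11 (SE, limma, adjusted p = 0.0147). All MI signals of Pdk2 lay at least 0.74 below the lowest sham signal. Pdk3, in contrast, was up-regulated from signals within the background range, and its value was 4.64, 4.69 and 4.45 in sham 1, 2 and 3 and 5.35, 5.46 and 5.12 in MI 1, 2 and 3. Among the MI signals of Pdk3, that of MI 1 was above the highest background control of its array and those of MI 2 and MI 3 were not. The log2 fold change of Pdk3 was 0.72 ± 0.13 (SE, limma, adjusted p = 0.0324), a size that is uncertain so close to the background. Pdk4, the isoform that fasting and fatty acids induce in heart and skeletal muscle, was 16.90, 17.14 and 16.94 in sham 1, 2 and 3 and 15.87, 16.56 and 16.78 in MI 1, 2 and 3. Its MI arrays lay below the sham arrays but were widely spread, and its log2 fold change of -0.59 (SE 0.24, adjusted p = 0.204, limma) was not called and was -0.32 without MI 1. Pdk1, a target of the hypoxia response, had a log2 fold change of -0.33 with overlapping groups.

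Because these kinases act on the same complex, the difference between their log2 fold changes was also taken within arrays, for 6 pairs. No size is given for the 3 pairs with Pdk3, whose signals were within the background range in all sham arrays and in MI 2 and MI 3. The log2 fold change of Pdk1 (-0.33) was less negative than that of Pdk2 (-0.97), with a difference of 0.64 and no overlap between the MI and sham arrays. For this pair the exact permutation test, two-sided, gave p = 0.1, the smallest that 3 against 3 arrays allow (0.15 adjusted over the 6 pairs). The arrays overlapped for Pdk4 against Pdk2 (difference 0.38) and against Pdk1 (difference -0.26), with exact permutation p = 0.4 for each pair (0.4 adjusted over the 6 pairs).

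**Figure D2:**
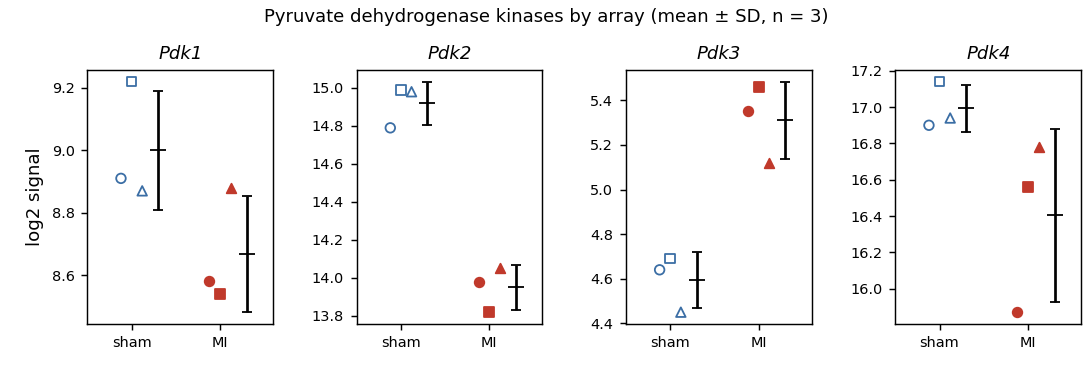
Log2 signal (y axis, a separate scale for each gene that does not start at 0) of the 4 pyruvate dehydrogenase kinases in the sham arrays (open blue) and the MI arrays (filled red), with circle, square and triangle for replicates 1, 2 and 3 and black bars for the mean ± SD (n = 3). Pdk2 fell from 14.92 to 13.95, Pdk3 rose from 4.59 to 5.31, and the MI arrays of Pdk4 spread from 15.87 to 16.78.

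Neither of the phosphatases that reactivate the complex was called. Pdp2 read 7.23, 6.31 and 6.68 in sham 1, 2 and 3 and 5.96, 5.79 and 6.29 in MI 1, 2 and 3. Its groups were separated by only 0.02 between sham 2 and MI 3, and the sham arrays themselves spanned 6.31 to 7.23 (log2 fold change -0.73, SE 0.26, adjusted p = 0.152, limma). Without sham 1 the log2 fold change of Pdp2 was -0.48. Pdp1 had a log2 fold change of -0.12 with overlapping groups, which was -0.04 without MI 1 and -0.21 without MI 3.

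The steps from citrate to 2-oxoglutarate were lower in part. Cs, citrate synthase, which condenses acetyl-CoA with oxaloacetate and whose activity is often used as a measure of mitochondrial content, was down-regulated. It read 18.79, 18.93 and 19.01 in sham 1, 2 and 3 and 18.14, 18.46 and 18.07 in MI 1, 2 and 3, and its log2 fold change was -0.69 ± 0.13 (SE, limma, adjusted p = 0.0399). Of the NAD-dependent isocitrate dehydrogenase, the catalytic subunit Idh3a fell, with signals of 16.28, 16.33 and 16.33 in sham 1, 2 and 3 and 15.63, 15.73 and 15.80 in MI 1, 2 and 3. The sham signals of Idh3a agreed within 0.05, the MI signals lay 0.48 or more below them, and the log2 fold change was -0.59 ± 0.09 (SE, limma, adjusted p = 0.0234). The other subunits Idh3b and Idh3g had log2 fold changes of -0.27 and -0.57 and were not called (adjusted p = 0.133 and 0.0618 from limma). The NADP-dependent enzymes stand outside the main flux of the cycle. Idh2, the mitochondrial one, was 16.33, 15.87 and 15.95 in sham 1, 2 and 3 and 15.63, 15.28 and 15.69 in MI 1, 2 and 3, with a log2 fold change of -0.51 ± 0.17 (SE, limma, adjusted p = 0.134). The groups of Idh2 did not overlap but sham 1 stood above the other sham arrays. Idh1, the cytosolic one, differed least of the 31 genes, with a log2 fold change of -0.10 (SE 0.09) and overlapping groups, which was -0.06 without sham 3. Aco1, the cytosolic aconitase that doubles as an iron regulatory protein, read 8.57, 8.47 and 8.62 in sham 1, 2 and 3 and 8.12, 8.15 and 8.23 in MI 1, 2 and 3. These groups did not overlap, and the log2 fold change of Aco1 was -0.39 ± 0.09 (SE, limma, adjusted p = 0.0591).

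Of the 5 genes of 2-oxoglutarate dehydrogenase and succinyl-CoA ligase, Dlst, Suclg1 and Suclg2 were down-regulated and Ogdh and Sucla2 were not called. Dlst, the succinyltransferase core of 2-oxoglutarate dehydrogenase, gave 14.48, 14.57 and 14.61 in sham 1, 2 and 3 and 13.67, 13.79 and 13.73 in MI 1, 2 and 3. No MI array came within 0.69 of a sham array, and the log2 fold change of Dlst was -0.83 ± 0.09 (SE, limma, adjusted p = 0.0142). Ogdh, the decarboxylating subunit of the same complex, had a log2 fold change of -0.45 (SE 0.10, adjusted p = 0.0524, limma) with non-overlapping groups. Succinyl-CoA ligase, which makes GTP or ATP from succinyl-CoA, has a common subunit, Suclg1, with signals of 11.64, 11.73 and 11.73 in sham 1, 2 and 3 and 10.58, 10.62 and 11.24 in MI 1, 2 and 3. The signal of Suclg1 in MI 3 lay between those of the other MI arrays and the sham arrays, and its log2 fold change of -0.89 ± 0.19 (SE, limma, adjusted p = 0.0495) was close to the threshold. Suclg2, of the GTP-forming enzyme, read 12.40, 12.20 and 12.21 in sham 1, 2 and 3 and 11.43, 11.39 and 11.81 in MI 1, 2 and 3 and was down-regulated, with a log2 fold change of -0.72 ± 0.14 (SE, limma, adjusted p = 0.0412). Sucla2, of the ATP-forming enzyme, was lower in MI 1 and MI 2 (14.31 and 14.29) but not in MI 3 (15.31), against 15.22 to 15.24 in the sham arrays, and was not called (log2 fold change -0.59, SE 0.28). Without MI 3 its log2 fold change was -0.93.

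Fumarase and the mitochondrial malate dehydrogenase close the cycle, and each was down-regulated. Fh1, fumarase, read 14.62, 14.72 and 14.79 in sham 1, 2 and 3 and 13.90, 13.81 and 14.12 in MI 1, 2 and 3. Its groups were 0.50 apart, and the log2 fold change was -0.76 ± 0.11 (SE, limma, adjusted p = 0.0234). Mdh2, the mitochondrial enzyme, was 16.71, 16.94 and 16.94 in sham 1, 2 and 3 and 16.28, 16.36 and 16.01 in MI 1, 2 and 3, with MI 3 the lowest. Its log2 fold change was -0.64 ± 0.13 (SE, limma, adjusted p = 0.0435). Mdh1, the cytosolic enzyme of the malate-aspartate shuttle, had a smaller difference, -0.29 (SE 0.10, adjusted p = 0.15, limma), without overlap. The difference between Mdh1 and Mdh2 was not tested.

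Among the genes that supply or withdraw cycle intermediates, pyruvate carboxylase and the mitochondrial NADP-dependent malic enzyme were down-regulated. Pcx, pyruvate carboxylase, which makes oxaloacetate, read 6.54, 6.44 and 6.40 in sham 1, 2 and 3 and 5.83, 6.05 and 5.84 in MI 1, 2 and 3. In MI 3 this was below the highest background control of the array (6.08). The groups were 0.35 apart, and the log2 fold change of Pcx was -0.55 ± 0.10 (SE, limma, adjusted p = 0.0362). Me3, the mitochondrial malic enzyme, had signals of 10.36, 10.18 and 10.38 in sham 1, 2 and 3 and 9.61, 9.35 and 9.65 in MI 1, 2 and 3. The log2 fold change of Me3 was -0.77 ± 0.12 (SE, limma, adjusted p = 0.0248), with all MI arrays at least 0.53 below the sham arrays. Me1, the cytosolic malic enzyme, had a log2 fold change of -0.38 (adjusted p = 0.139 from limma), and MI 3 (11.98) came within 0.07 of the lowest sham array. Neither aspartate aminotransferase was called. Got1, the cytosolic one, was 17.44, 17.70 and 17.96 in sham 1, 2 and 3 and 17.20, 17.48 and 16.54 in MI 1, 2 and 3. MI 2 lay above sham 1 in Got1 and MI 3 was far below the rest, and its log2 fold change was -0.63 ± 0.26 (SE, limma, adjusted p = 0.212), or -0.36 without MI 3. Got2, the mitochondrial one, had non-overlapping groups and a log2 fold change of -0.50 (SE 0.12, adjusted p = 0.0622, limma).

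**Figure D3:**
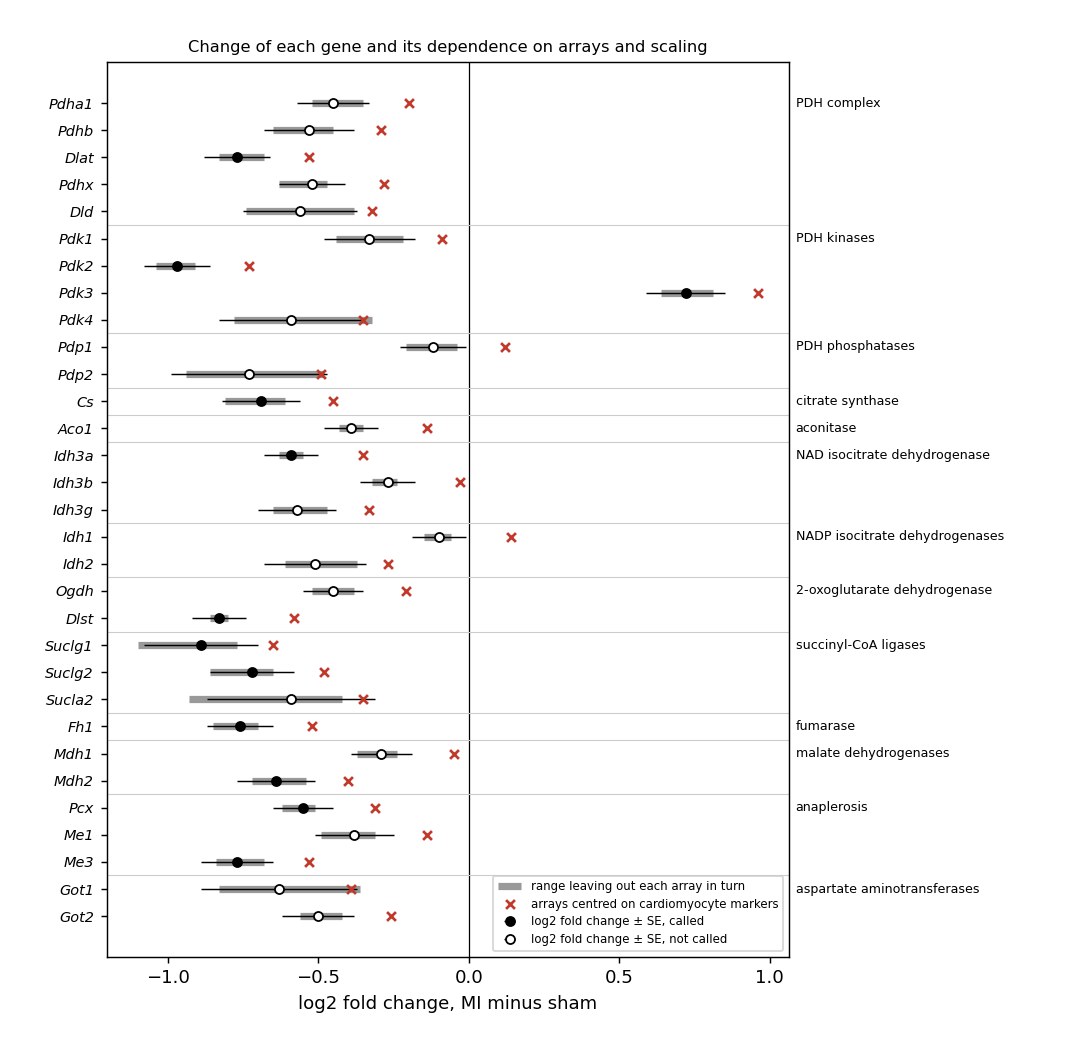
Log2 fold change of each of the 31 genes (x axis, MI minus sham; circles with the SE from limma, filled where called), with grey bars for the range when each array was left out in turn and red crosses for the value when arrays were centred on the cardiomyocyte markers. Circles and grey bars lie below 0 for 30 genes and above 0 for Pdk3, and the crosses of Pdp1 and Idh1 move to 0.12 and 0.14.

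Markers of other cell types moved with the group, and their part in the lower signals was not tested. Of 9 fibroblast markers 8 were called higher in MI, and the log2 of their summed signal was 16.78 to 16.86 across the sham arrays but 18.37 to 18.79 across those of MI. Of 11 macrophage markers 3 were called higher, with summed levels of 11.31 to 11.92 in sham and 12.25 to 13.03 in MI. Of 17 cardiomyocyte markers, 1 was called lower (Ldb3, a Z-disc protein, log2 fold change -0.48), the median log2 fold change was -0.12, and the log2 of their summed signal was 22.40 to 22.43 in sham and 22.31 to 22.38 in MI. In 14 of the 17 the log2 fold change was below 0, and in 3 above. All MI arrays lay below the sham arrays in 9 of the 17 (52.9%), as in 16.8% of all probe sets tested, and above them in 0. At an unadjusted p under 0.05 from limma there were 6 of the 17. Most of the sum comes from Tnnt2, Actc1, Myh6 (19.75 to 19.89) and Pln (19.59 to 19.77). These lie at or near the highest signal of an array (19.79 to 19.93), so the sum shows little of the dimmer markers. Tnnt2 and Actc1, a troponin and the cardiac actin, sat at the highest signal of every array, where a difference may not be visible. Ckm (-0.99) and Ryr2 (-0.89), named after their values were seen, had larger differences than Ldb3 without being called. None of 7 endothelial or 5 smooth muscle markers was called (limma), with 3 and 0 at an unadjusted p under 0.05, and of 4 atrial markers Nppa, which sat at the highest signal of every MI array, was called higher, while Myl7 (-3.53), Sln (-2.72) and Myl4 (-0.41) were not called. Adipocyte markers were within the background range in all arrays for 5 of 6 genes, the exception being Retn in MI 2 (6.85).

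The 17 cardiomyocyte markers include Tnnt2 and Actc1, which sat at the highest signal of every array. When the arrays were centred on these 17 markers, the median log2 fold change of all probe sets moved to 0.25 and that of the 31 genes to -0.32. The list then had 5 genes called lower (Dlat, Dlst, Fh1, Me3 and Pdk2) and Pdk3 called higher, and Cs, Idh3a, Mdh2, Pcx, Suclg1 and Suclg2 were no longer called, while calls over all probe sets went from 2180 to 4001. With the 12 less bright of these markers, chosen after the data were seen, the medians were 0.33 and -0.24, and Me3, Pdk2 and Pdk3 were called, among 4866 probe sets.

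Further genes of the pathway were lower for the most part. Of 40 related genes that are not in the list above, 34 had a probe set and 33 were tested, and 12 of these were down-regulated and none was up-regulated (adjusted p under 0.05, limma), against 3.64% called lower and 2.97% called higher of all probe sets tested. Me2, another mitochondrial malic enzyme, named after its values were seen as are Mcee and Slc25a12, was the 1 gene higher at an unadjusted p under 0.05 (log2 fold change 0.42, adjusted p = 0.126, limma), with all MI arrays above the sham arrays. The median log2 fold change of the 33 was -0.62. Ogdhl, a relative of Ogdh, had the largest decrease among the called ones (log2 fold change -1.25, SE 0.21, adjusted p = 0.0294, limma), followed by D2hgdh, which returns D-2-hydroxyglutarate to 2-oxoglutarate (-1.22). The enzymes that bring propionyl-CoA into the cycle as succinyl-CoA had log2 fold changes of -1.01 for the mutase Mut, -0.89 for Pcca and -0.79 for Pccb, the carboxylase subunits, which were called, and of -0.73 for the epimerase Mcee (adjusted p = 0.232, limma), which was not and whose groups overlapped. The alanine aminotransferases Gpt2 (-0.87) and Gpt (-0.69), which interconvert alanine and pyruvate, also fell, but Gpt was below the highest background control in MI 2 and MI 3, as Lipt1 was in MI 3, so that the sizes of these changes are uncertain. Ldhb, the lactate dehydrogenase subunit typical of heart, fell by 0.82 on the log2 scale. Of the carriers of the malate-aspartate shuttle, Slc25a13 (-0.80) and Slc25a11 (-0.74) were down-regulated and Slc25a12 (-0.93, SE 0.30, adjusted p = 0.125, limma) was not called. Also down-regulated were Pdpr (-0.72), the regulatory subunit of the pyruvate dehydrogenase phosphatase, and Lipt1 (-0.58), which attaches lipoate to the acyltransferase cores. Subunits of succinate dehydrogenase, the cycle enzyme that is also respiratory complex II, were not called. Their log2 fold changes were -0.58 for Sdha, -0.49 for Sdhb, -0.81 for Sdhc and -0.56 for Sdhd. In each of these subunits all MI arrays lay below the sham arrays, with gaps of 0.12 to 0.18, as they did in 16.8% of all probe sets tested. The calls of the related genes, too, changed when single arrays were left out, with 17 lower and 1 higher without MI 3 and 2 lower without sham 1. When any other array was left out, limma called 0, and 19 to 21 were lower at an unadjusted p under 0.05.

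Beside the 31 genes, the oxidation of fatty acids, another source of acetyl-CoA, had 13 of 17 genes called lower and a median log2 fold change of -0.87. Complex I subunits had a median of -0.53 with 2 of 32 called lower, and glycolytic enzymes one of -0.25 with 2 of 12 called lower. The background of 3.64% lower among all probe sets tested, or 7.64% among the brighter ones, applies to these counts too, and the 2 of 32 of complex I (6.25%) lay near it. No test was made of the differences between the lists, which hold genes chosen by function.

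**Figure D4:**
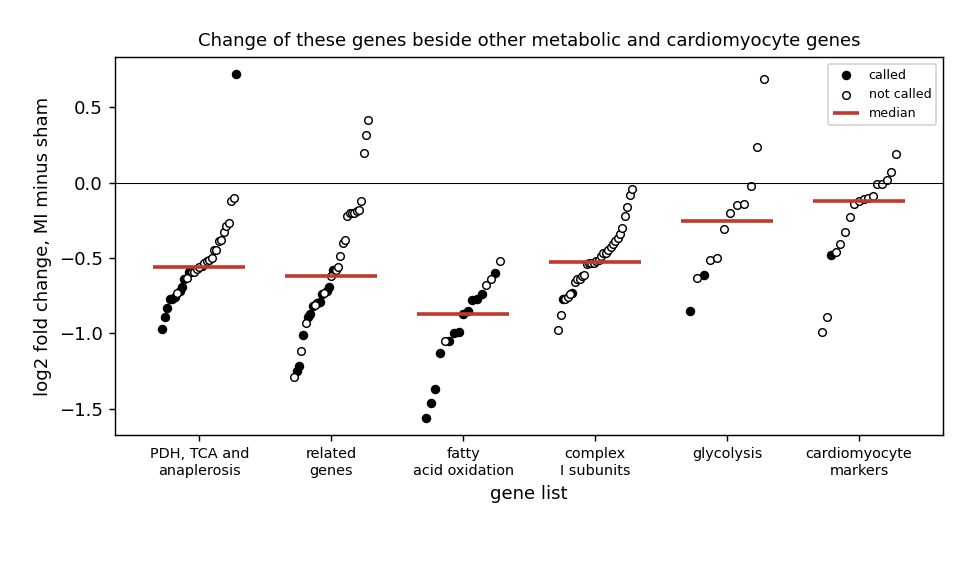
Log2 fold change (y axis, MI minus sham) of the tested genes of each list (x axis), filled where called at an adjusted p under 0.05 from limma, with a red line at the median. The medians are -0.56 for the 31 genes, -0.62 for related genes, -0.87 for fatty acid oxidation, -0.53 for complex I, -0.25 for glycolysis and -0.12 for cardiomyocyte markers.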

How the data were processed

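The authors normalized the array intensities with RMA and SKETCH in Affymetrix Expression Console (named EC 2.0 in the methods) and deposited log2 signals for 72688 probe sets, which were used as given. The methods mention a filter on low intensities, but it is not applied in the table. After 6732 controls were left out, 30638 probe sets carried 1 gene symbol, 2176 several and 33142 none in the platform annotation. Probe sets with a mean log2 signal of at least 4.36, the 50th percentile, were tested (32979). MI and sham were compared by two-sided moderated tests in limma 3.58.1 under R 4.3.3, without covariates, and p-values were adjusted over all tested probe sets by the Benjamini-Hochberg method. The number of arrays limits the precision. The procedure was tested on simulated data with independent noise for each probe set and array. That setting holds no shift shared by a whole array, so it cannot show how such shifts affect the calls. The list of genes, the related genes, the marker lists and the motifs were chosen with earlier results of these data known, and choices added later are named as such. Per-array values are given for each called gene and, in steps with none, for the gene with the largest difference, and related genes are named where called, along with Sdha to Sdhd. Motifs were counted as exact letters in RefSeq promoters. No array was a copy of another (correlations 0.977 to 0.996). Alternatives were other filters, tests, weights and scalings, the replicate number as a block, and leaving out arrays. Python 3.11.15 with pandas 2.3.3 and matplotlib 3.10.9 served for tables and plots.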

Additional observations from a re-analysis of the deposited data

How the results depend on the processing

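All 31 genes kept their direction in 15 of 17 alternatives (in the filter at the 75th percentile, the 29 that passed it, without Pdk3 and Pcx), and the exceptions arose by centring on cardiomyocyte markers. With all 17 markers Pdp1 (0.12) and Idh1 (0.14) turned positive, and with the 12 less bright markers Pdp1 (0.19), Idh1 (0.22), Idh3b (0.04) and Mdh1 (0.03) did. None of these genes was called with either marker centring. With array weights Pdp1, Idh3b and Mdh1 were called lower, and Mdh1 was also called lower with quantile normalization and without MI 3. The cause of the changes below was not tested unless stated.

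Genes of the list called lower numbered 11, against 7 with no filter, where more probe sets were adjusted for, 2 with the methods' t-test, 28 with array weights, 5 and 2 with the 2 marker centrings and 0 with the replicate block. Leaving out 1 array gave 0 to 19. The array weights were 5.631, 0.646 and 0.228 for MI 1, 2 and 3, so the MI side of the weighted fit was mostly MI 1. Those of sham 1, 2 and 3 were 0.599, 1.634 and 1.229. Genes called higher numbered 1, against 0 with the t-test, with the 75th percentile filter, which removes Pdk3, and with the replicate block, and 0 to 1 without 1 array. Related genes called lower numbered 12, against 1 with the t-test, 24 with array weights, 7 with the less bright markers, 0 with the replicate block and 0 to 17 without 1 array. Related genes called higher numbered 0, against 2 with array weights, 1 with each marker centring and 1 without sham 1 and MI 3 together, and 0 to 1 without 1 array. Probe sets called numbered 2180, against 272 with the t-test, 10760 with array weights, 4001 and 4866 with the marker centrings, 4432 without sham 1 and MI 3 together, 0 with the replicate block and 0 to 4687 without 1 array. Quantile normalization moved the median of the 31 genes to -0.81.

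Deviations of same-numbered arrays from their group means correlated at -0.287, 0.352 and -0.374, and those of differently numbered arrays at -0.505 to 0.499. With 3 arrays per group these values cannot decide whether the replicate numbers pair the arrays. With the replicate block 22 genes of the list were lower and 1 higher at an unadjusted p under 0.05 from limma. Each gene had 1 tested probe set, so averaging probe sets changed nothing.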
